A study of Mus musculus with 12 samples.

Results

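Adiponectin, encoded by Adipoq, and its receptors Adipor1, Adipor2 and Cdh13 were examined in epididymal white adipose tissue (eWAT) of diet-induced obese mice. These 4 genes were taken by their mouse Ensembl identifiers from a table of 23474 genes, and each of them had a row. The table held 12 RNA-seq libraries in 4 groups of 3. All mice were male C57BL/6J, received their diets from 5 weeks of age for 12 weeks and were 17 weeks old at sampling. The ND group received a normal diet and the HFD group a high-fat diet. The GT group received the high-fat diet with an ethanol extract of green tea at 0.25% (w/w), and the TJ group received it with Taeeumjowuitang at 3% (w/w), a Korean herbal medicine used against obesity. In the HFD and TJ groups a library came from a single, randomly selected mouse, whereas the sources used here do not give this for the ND and GT groups. The tissue is whole fat, in which adipocytes, vascular cells and immune cells are mixed, so that fewer cells of a type and less RNA per cell cannot be told apart.

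Adiponectin is a hormone secreted almost exclusively by adipocytes. It circulates as trimers and larger multimers, and its plasma level is typically lower in obesity. AdipoR1 and AdipoR2 are membrane proteins of the PAQR family through which adiponectin activates AMP-activated protein kinase and PPAR-alpha signalling. Cdh13 encodes T-cadherin, a cadherin without a cytoplasmic domain that is anchored by a lipid tail, is abundant on vascular cells and binds the multimeric forms of the hormone.

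In the mouse genome build GRCm38, Adipoq (ENSMUSG00000022878) lies on the plus strand at chr16:23146536-23158028 and Adipor1 (ENSMUSG00000026457) on the plus strand at chr1:134415378-134433351. Adipor2 (ENSMUSG00000030168) lies on the minus strand at chr6:119353150-119417704, and Cdh13 (ENSMUSG00000031841) spans 1041.2 kb of the plus strand at chr8:118283733-119324921. The Cdh13 introns hold other annotated transcripts, including the antisense genes Gm45720 and Gm45721, and nothing in the sources used here says that strand was used in the quantification. The longest annotated transcripts measure 1292 nt for Adipoq, 3446 nt for Adipor1, 4184 nt for Adipor2 and 4565 nt for Cdh13.

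The promoters are shown because Adipoq and Adipor2 both rose in TJ relative to HFD and both fell in HFD relative to ND without ND replicate 1 while their upstream sequences differ in composition. Each sequence is the 250 bases before a RefSeq transcription start (build GRCm38.p6), given 5′ to 3′ on the strand of the gene, with every CCAAT, or its reverse complement ATTGG, in capitals. The windows are chr16:23146286-23146535 for Adipoq, chr1:134415128-134415377 for the first start of Adipor1 and chr6:119388735-119388984 for Adipor2, and the Adipor2 window lies within an intron of longer annotated transcripts.
Adipoq: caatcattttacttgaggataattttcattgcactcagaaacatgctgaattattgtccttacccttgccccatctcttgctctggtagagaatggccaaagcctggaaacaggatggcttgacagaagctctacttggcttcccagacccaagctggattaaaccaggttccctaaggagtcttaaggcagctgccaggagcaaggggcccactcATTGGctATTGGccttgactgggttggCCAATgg
Adipor1: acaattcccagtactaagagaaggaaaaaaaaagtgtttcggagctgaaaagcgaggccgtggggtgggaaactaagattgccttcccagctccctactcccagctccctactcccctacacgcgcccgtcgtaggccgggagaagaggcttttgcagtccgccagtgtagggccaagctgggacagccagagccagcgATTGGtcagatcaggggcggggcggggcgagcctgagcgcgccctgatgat
Adipor2: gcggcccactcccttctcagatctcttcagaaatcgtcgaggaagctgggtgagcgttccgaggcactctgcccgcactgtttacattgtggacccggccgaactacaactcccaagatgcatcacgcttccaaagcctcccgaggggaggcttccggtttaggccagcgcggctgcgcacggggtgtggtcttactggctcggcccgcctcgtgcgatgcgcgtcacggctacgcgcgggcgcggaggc

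The Adipoq window held 0 CpG dinucleotides, as few as 7.9% of all RefSeq promoter windows of this length, and had a GC content of 48.8%. The receptor windows were GC-rich by comparison. The Adipor1 window held 15 CpG with a GC content of 59.6%, and the Adipor2 window held 27 CpG with a GC content of 64.8%, against a median of 6 CpG and 52.4% over all windows. Both strands were searched for TATAAA (present in 12.4% of all windows), for CCAAT (33.9%), for AGGTCA (14.0%) and for CACGTG (6.02%). Only CCAAT was found. It occurred 3 times within the last 34 bases before the Adipoq start, once in the Adipor1 window and not in the Adipor2 window. These matches describe the letters of the windows and say nothing of factor binding.

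Expression was measured as FPKM (fragments per kilobase of transcript, scaled to the mapped fragments of the library), so that levels can be compared between genes. The depth is not given with the table, and the spacing of low values corresponds to roughly 9.7 M to 19.8 M fragments per library. Groups were compared on log2(FPKM + 1) with limma across all genes that averaged 1 FPKM or more over the libraries of the 2 groups compared, and a gene was called when the Benjamini-Hochberg adjusted p was under 0.05 and the fold change was at least 1.5. Log2 fold changes are given ± standard error. With 3 libraries per group, the exact two-sided permutation test for a single gene cannot give a p below 0.1.

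ND replicate 1 stood apart from the other 11 libraries before any comparison. The summed FPKM of 8 male germ cell markers was 98971 in it and between 0.685 and 2980 in the others, and that of 8 epididymis markers was 16158 against 0.470 to 1291. Its 9 adipocyte markers other than Adipoq summed to 3996, against 16694 to 57040 elsewhere. All 9 adipocyte markers were above 0 in each library. Differences from the ND group are therefore given with and without ND replicate 1. Germ cell markers also summed to 2980 in ND replicate 3 and 2061 in HFD replicate 1, against at most 164.9 in the remaining 9 libraries, so that 1 of the 2 ND libraries kept without ND replicate 1 carried them too. HFD replicate 2 held the second-highest epididymis sum, and among the HFD libraries it had the highest Adipoq, Adipor2 and Cdh13 values.

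**Figure D1:**
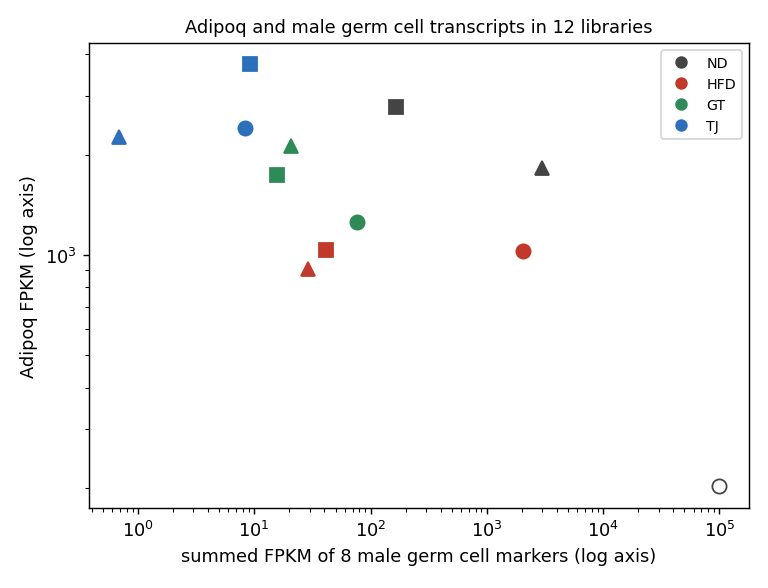
Adipoq FPKM (vertical, log axis) against the summed FPKM of 8 male germ cell markers (horizontal, log axis) in each of the 12 libraries. Circles, squares and triangles are replicates 1, 2 and 3, and the open circle is ND replicate 1, which lies alone at 98971 marker FPKM and 202.0 Adipoq FPKM.

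Adipoq, the hormone gene, was among the most abundant transcripts of the tissue. The 3 HFD libraries had 1027, 1037 and 907.9 FPKM, the lowest values apart from ND replicate 1. The GT libraries had 1258, 1741 and 2129 FPKM, and the TJ libraries had 2410, 3738 and 2253 FPKM. ND replicates 2 and 3 had 2781 and 1826 FPKM, within the range of the GT and TJ libraries, whereas ND replicate 1 had 202.0 FPKM. In FPKM all GT and TJ libraries thus lay above all HFD libraries, and all TJ libraries lay above all GT libraries. By rank from the highest FPKM, Adipoq stood between the 22nd and the 54th of the 23474 genes in 11 libraries and was the 789th in ND replicate 1. It was the 24th in GT replicate 3 and the 26th and 25th in TJ replicates 1 and 3, so that by rank GT and TJ overlapped.

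**Figure D2:**
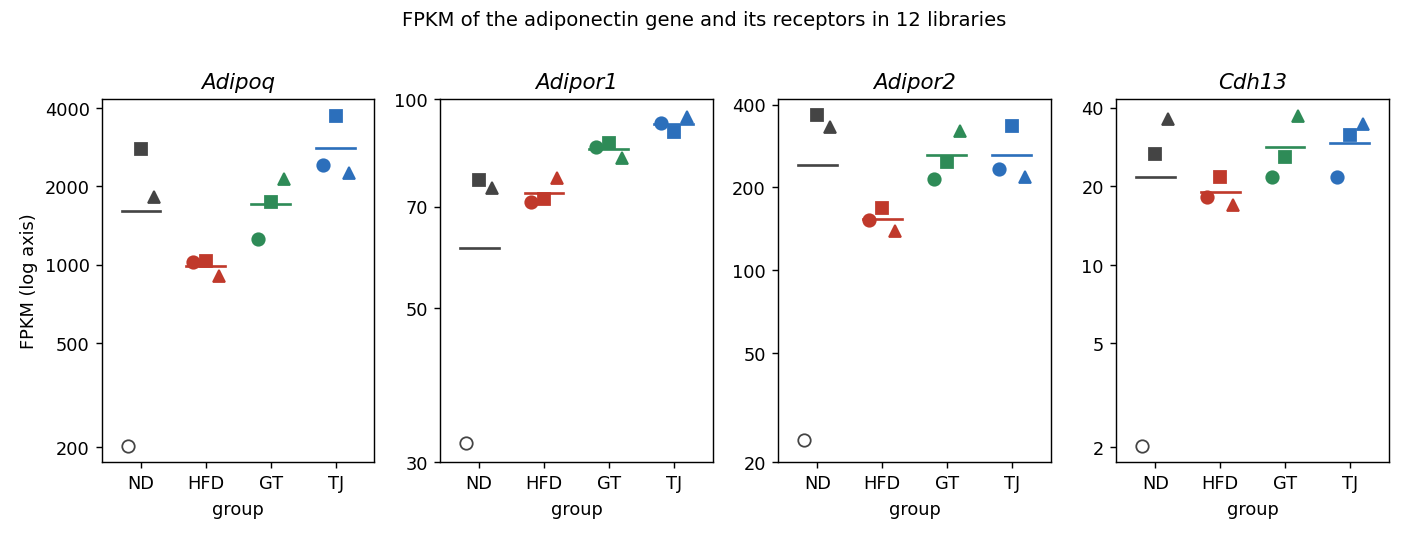
FPKM (log axis, scaled separately per gene) of Adipoq, Adipor1, Adipor2 and Cdh13 in the 4 groups. Each point is a library (circle, square and triangle for replicates 1, 2 and 3), lines are group means over 3 libraries and the open circle is ND replicate 1, the lowest value of each gene. The HFD libraries lie below all GT and TJ libraries in every panel, for Cdh13 at 21.69 against 21.70 and 21.75 FPKM at the nearest. The share of all genes with such a separation was not computed. By limma, 5299 of 12807 genes had an unadjusted p under 0.05 in TJ against HFD and 3744 of 12766 in GT against HFD.

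The mean Adipoq level was 990.5 ± 71.8 FPKM in the HFD group (SD, n = 3) and 2801 ± 816 FPKM in the TJ group (SD, n = 3), a ratio of 2.83. On the log2 scale Adipoq rose by 1.46 ± 0.22 in the TJ group (adjusted p = 0.022, 95% confidence interval 0.93 to 1.99). This rise was smaller, but still called, with quantile normalization (1.13, fold change 2.18) and with the transcript length trend removed (1.16, fold change 2.23). Of the 12807 genes tested in this comparison 18.5% were called, so that a call here was not rare. The call was lost when any single HFD library or TJ replicate 1 was left out, with log2 fold changes between 1.40 and 1.55. With any of these libraries left out limma called 0 genes in all, with 3732 to 4735 genes at an unadjusted p under 0.05. The Adipoq call was also lost without the filter on low values (adjusted p = 0.0592) and with all 12 libraries in the fit (adjusted p = 0.425). The GT mean was 1709 ± 436 FPKM (SD, n = 3). The difference of GT from HFD was 0.76 ± 0.19 on the log2 scale, with an adjusted p of 0.0673, and Adipoq was not called, in a comparison in which 3.63% of 12766 genes were. Without GT replicate 1, the lowest GT library, the difference was 0.96 with an adjusted p of 0.0305. Between TJ and GT the log2 difference was 0.71 ± 0.30 (adjusted p = 0.194, interval 0.02 to 1.39), and Adipoq was not called, where 0.148% of 12187 genes were. The difference was 0.43 with quantile normalization (interval -0.18 to 1.04) and 0.32 with the transcript length trend removed (interval -0.36 to 0.99). Both supplemented groups were compared with the same 3 HFD libraries, so those differences are not independent of each other.

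In HFD against ND the call turned on ND replicate 1. With all libraries the log2 difference of HFD from ND was -0.03 ± 1.01 (adjusted p = 0.989), in a comparison that called 1.77% of 14430 genes and, with the replicate number as a block, 0. Without ND replicate 1, Adipoq fell by 1.19 on the log2 scale (SE 0.21, adjusted p = 0.0219), with means of 2304 FPKM in ND (n = 2) and 990.5 FPKM in HFD (n = 3), a ratio of 0.430. This fit had no replicate block, and a blocked fit without ND replicate 1 was not run. In that comparison 15.4% of 13661 genes were called. Beside Adipoq and Adipor2, 6 of the 9 adipocyte markers fell (median -0.88) and Lep rose. All 8 macrophage markers rose (median 2.57), and 3 of 5 mesothelial markers fell. Of 6 stromal progenitor markers 2 rose, and of 6 mural (vessel wall) markers 1 rose. With all libraries 1 of the 8 macrophage markers was called, and none of the adipocyte, mesothelial, stromal progenitor or mural markers was. All 8 macrophage markers were then higher and all 5 mesothelial markers lower in HFD. Of the adipocyte markers 4 were higher and 5 lower (median -0.19). The part of these markers in the fall of Adipoq and Adipor2 was not tested. In Adipoq the HFD libraries and ND replicates 2 and 3 did not overlap, and the exact permutation p was 0.2, the smallest that 3 against 2 libraries allow.

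Adipor2 followed Adipoq in the comparisons with HFD. Its values were 152.2, 168.0 and 139.2 FPKM in HFD, 215.2, 247.0 and 322.1 FPKM in GT, and 232.6, 333.8 and 219.0 FPKM in TJ. ND replicates 2 and 3 had 365.6 and 331.8 FPKM, above every GT library, and ND replicate 1 had 24.0 FPKM. The HFD libraries were thus the lowest of the 11 libraries, and the GT and TJ libraries overlapped each other. Adipor2 rose by 0.75 ± 0.19 on the log2 scale in TJ relative to HFD (adjusted p = 0.0413, interval 0.29 to 1.21). The call was lost when any HFD library, TJ replicate 1 or TJ replicate 2 was left out, with log2 differences between 0.56 and 0.82. It was also lost without the filter on low values (adjusted p = 0.0742), with all 12 libraries in the fit (adjusted p = 0.744) and with quantile normalization (0.57, a fold change under 1.5). The difference of GT from HFD was of the same size, 0.75 ± 0.16, with an adjusted p of 0.0505, and was not called. It was called without GT replicate 1 (0.88, adjusted p = 0.0355), and with all libraries under a pseudocount of 0.1 (0.76, adjusted p = 0.046) and under median-of-ratios scaling (0.86, adjusted p = 0.0439). TJ and GT differed by -0.00 ± 0.23 (adjusted p = 0.993), and the interval of -0.53 to 0.53 leaves room for differences of either sign. Without ND replicate 1, Adipor2 fell in HFD relative to ND by 1.18 on the log2 scale (SE 0.13, adjusted p = 0.00524), from 348.7 to 153.1 FPKM. With all libraries this difference was 0.08 ± 1.07 (adjusted p = 0.971).

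Adipor1 varied least among the 4 genes. The HFD libraries had 71.1, 71.8 and 77.1 FPKM, the GT libraries 85.4, 86.5 and 82.3 FPKM and the TJ libraries 92.3, 89.7 and 94.2 FPKM. ND replicates 2 and 3, at 76.5 and 74.6 FPKM, lay among the HFD libraries, and ND replicate 1 had 32.0 FPKM. In FPKM the 3 high-fat groups did not overlap and were ordered HFD, GT and TJ, with no call in any comparison. By rank from the highest FPKM, the TJ libraries stood at 931, 1042 and 879 and the GT libraries at 952, 918 and 923, so that they overlapped. The FPKM of all genes summed to 574984 to 725245 in the TJ libraries, 544881 to 555804 in GT and 527904 to 552100 in HFD. The log2 difference was 0.33 ± 0.12 for TJ against HFD (adjusted p = 0.0836) and 0.21 ± 0.08 for GT against HFD (adjusted p = 0.162), and both are below a fold change of 1.5. For TJ against GT it was 0.12 ± 0.13 (adjusted p = 0.546), and -0.027 with quantile normalization. Between HFD and ND it was 0.36 ± 0.41 with all libraries (adjusted p = 0.646) and -0.04 ± 0.10 without ND replicate 1 (adjusted p = 0.805, interval -0.30 to 0.22).

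Cdh13 was the least abundant of the 4 genes in FPKM. It had 18.3, 21.7 and 17.0 FPKM in HFD, 21.7, 26.0 and 37.3 FPKM in GT, and 21.7, 31.4 and 34.6 FPKM in TJ. ND replicates 2 and 3 had 26.7 and 36.2 FPKM, and ND replicate 1 had 2.03 FPKM. HFD replicate 2 and the lowest GT and TJ libraries were separated by less than 0.1 FPKM, so the ranges barely failed to overlap. The log2 difference was 0.58 ± 0.20 for TJ against HFD (adjusted p = 0.0738), 0.53 ± 0.20 for GT against HFD (adjusted p = 0.142) and 0.05 ± 0.24 for TJ against GT (adjusted p = 0.897), none of them called. Rescaling the libraries by median-of-ratios or quantile normalization brought Cdh13 past both thresholds in TJ against HFD (0.70 with an adjusted p of 0.0452, and 0.69 with an adjusted p of 0.0379). For HFD against ND it was 0.44 ± 0.97 (adjusted p = 0.810) with all libraries and -0.69 ± 0.19 (adjusted p = 0.0667) without ND replicate 1.

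**Figure D3:**
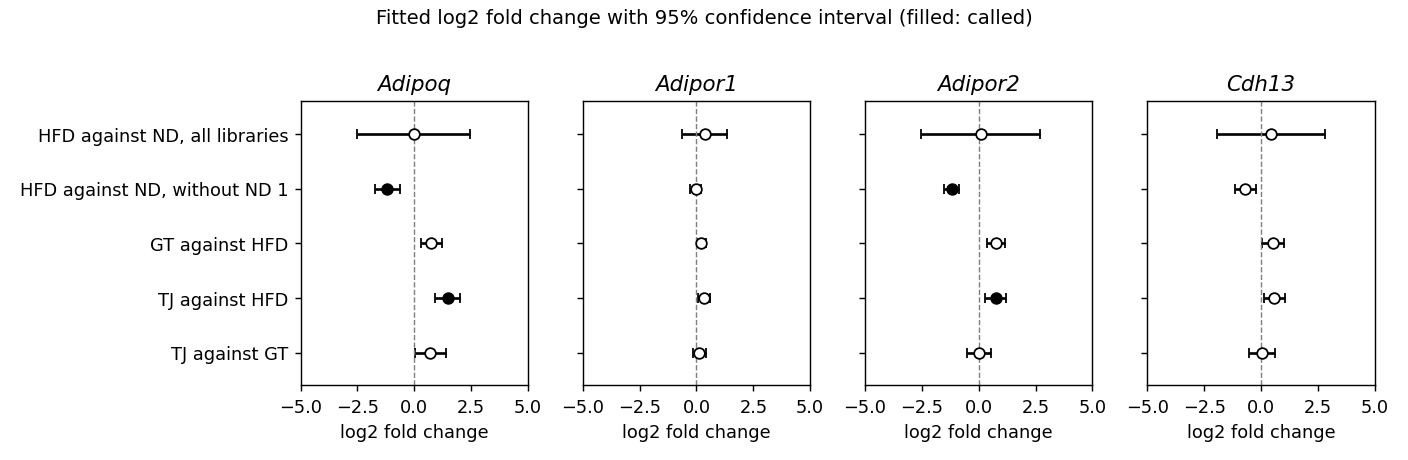
Fitted log2 fold change (horizontal) of the 4 genes in 5 comparisons, each point with its 95% confidence interval and filled where the gene was called. Adipoq and Adipor2 are filled in TJ against HFD, at 1.46 and 0.75, and in HFD against ND without ND replicate 1, at -1.19 and -1.18.

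None of the 4 genes was called in GT or TJ against ND. With all libraries 0% of genes were called in either comparison, although 1508 and 1532 genes had an unadjusted p under 0.05. Without ND replicate 1 the share was 0.0451% for GT against ND and again 0% for TJ against ND, where 3163 genes had an unadjusted p under 0.05. With all libraries the log2 differences of GT from ND were 0.73 for Adipoq, 0.57 for Adipor1, 0.83 for Adipor2 and 0.97 for Cdh13, and those of TJ from ND were 1.43, 0.69, 0.83 and 1.02 in the same order. Without ND replicate 1 the log2 differences of GT from ND were -0.43 for Adipoq, 0.16 for Adipor1, -0.43 for Adipor2 and -0.17 for Cdh13. Those of TJ from ND were then 0.28 for Adipoq, 0.28 for Adipor1, -0.44 for Adipor2 and -0.11 for Cdh13. Leaving out that library thus turned the sign for Adipoq in GT and for Adipor2 and Cdh13 in both groups. In FPKM the Adipor1 values of all GT and TJ libraries were above those of all ND libraries, whereas the Adipor2 values of all GT libraries were below ND replicates 2 and 3. By rank, Adipor1 in TJ replicate 2 (1042nd) stood below ND replicates 2 and 3 (987th and 975th).

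The balance of the receptors differed between libraries. Adipor2 exceeded Adipor1 in FPKM in 11 of the 12 libraries, ND replicate 1 being the exception. The log2 ratio of Adipor2 to Adipor1 was 2.24 and 2.14 in ND replicates 2 and 3, 1.05 ± 0.19 in HFD (SD, n = 3), 1.59 ± 0.32 in GT (SD, n = 3) and 1.47 ± 0.36 in TJ (SD, n = 3). All GT libraries lay above all HFD libraries, with an exact permutation p of 0.1. One TJ library, at 1.21, lay just within the HFD range, and the exact p for TJ against HFD was 0.2. For HFD against ND the exact p was 1 with all libraries. Without ND replicate 1 the difference of HFD from ND was -1.14 on the log2 scale.

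Adipoq was also set against adipocyte marker genes in each library, taken as the mean log2(FPKM + 1) of Plin1, Plin4, Cidec, Fabp4, Lipe, Pnpla2, Cidea, Adrb3 and Lep. This mean is not a measure of adipocyte content, since the markers themselves differed between groups. Of these 9 markers 6 rose and none fell in TJ relative to HFD (median 0.79, against -0.14 over all genes), and 3 rose in GT relative to HFD, where 18.5% and 3.63% of all genes tested were called. Adrb3, the beta-3 adrenergic receptor, rose by 2.51 in TJ, Fabp4, a fatty acid carrier, by 1.22 and Lipe, hormone-sensitive lipase, by 1.14. Lep, the leptin gene, differed in the other direction, by -0.96 (adjusted p = 0.111), and was not called. It enters the marker mean like the others and so lowers that mean in TJ relative to HFD. The Adipoq excess over the markers was 1.40 ± 0.15 on the log2 scale in HFD (SD, n = 3), 1.47 ± 0.14 in GT (SD, n = 3) and 2.06 ± 0.11 in TJ (SD, n = 3). All TJ libraries, from 1.96 to 2.18, were above all HFD libraries, from 1.27 to 1.57, with an exact permutation p of 0.1. GT and HFD differed by 0.06 (exact p = 0.7), and by -0.22 when the median of the markers was used. ND replicates 2 and 3 stood at 2.16 and 1.51, and the mean over all 3 ND libraries was 1.61 ± 0.51 (SD, n = 3). Without ND replicate 1 the difference of HFD from ND was -0.43 (exact p = 0.4).

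Macrophage markers were lower in TJ than in HFD. The summed FPKM of 8 macrophage markers was 58.6 in ND replicate 1, 439.2 and 569.8 in ND replicates 3 and 2, 2881 to 4009 in HFD, 1199 to 2640 in GT and 718.3 to 2112 in TJ. Of the 8, 7 fell in TJ relative to HFD, where 18.5% of all genes tested were called. In GT relative to HFD none of the 8 was called (median log2 difference -0.89), where 3.63% of all genes were. Of 6 stromal progenitor markers, 2 fell in TJ relative to HFD (median -0.82) and 2 in GT relative to HFD (median -0.45), and none rose, next to the same shares of all genes. The part of the macrophage and stromal progenitor markers in the differences of Adipoq and Adipor2 was not tested.

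Cdh13 was set against 8 endothelial markers in the same way, although the cell type that gives its signal is not resolved in whole tissue. The summed marker FPKM was 378.9 to 458.2 in HFD, 483.5 to 578.8 in GT and 720.5 to 1118 in TJ, and Emcn, Egfl7 and Cldn5 rose in TJ relative to HFD, next to 18.5% of all genes called. The other 5 markers were not called, and none of the 8 was called in GT relative to HFD (median log2 difference 0.22). The log2 difference of Cdh13 from the markers was -1.06 ± 0.13 in HFD (SD, n = 3), -0.80 ± 0.28 in GT (SD, n = 3) and -1.29 ± 0.06 in TJ (SD, n = 3). TJ thus lay below HFD without overlap (exact permutation p = 0.1), but with the median of the markers the difference was 0.15, with the opposite sign. ND replicates 2 and 3 stood at -0.65 and -0.34, and the mean over all 3 ND libraries was -0.78 ± 0.53 (SD, n = 3).

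**Figure D4:**
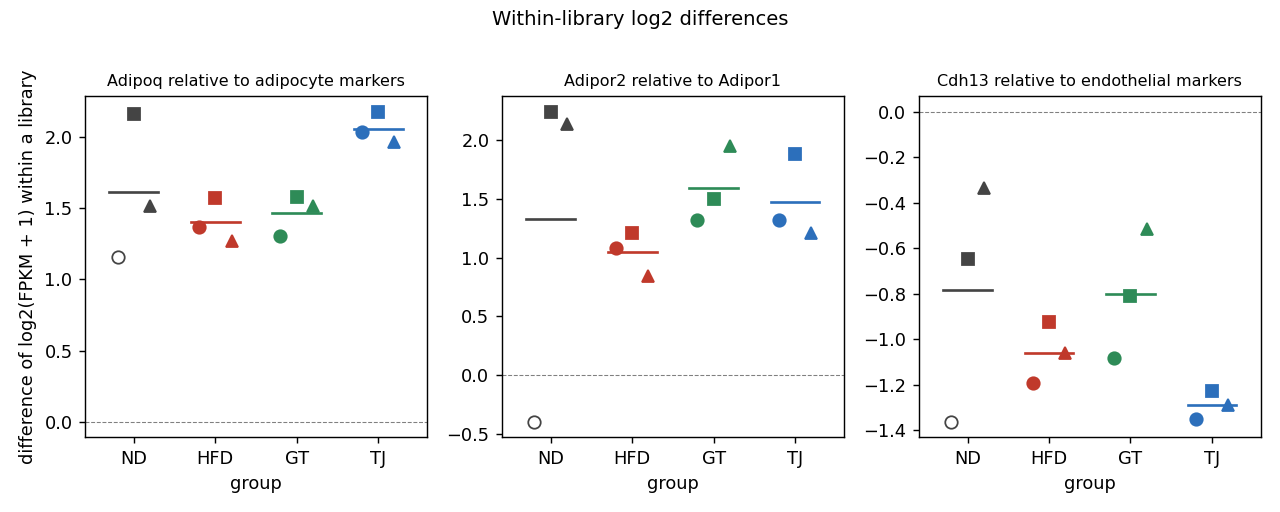
Differences of log2(FPKM + 1) within each library (vertical) by group: Adipoq minus the mean of 9 adipocyte markers, Adipor2 minus Adipor1, and Cdh13 minus the mean of 8 endothelial markers. Each point is a library, lines are group means and the open circle is ND replicate 1. In the left panel the TJ libraries, from 1.96 to 2.18, lie above the HFD and GT libraries.

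The other genes of the pathway were examined in lists from general knowledge, and the counts below stand against the shares of all tested genes called, 18.5% in TJ against HFD, 3.63% in GT against HFD, and 1.77% with and 15.4% without ND replicate 1 in HFD against ND. Of 10 genes for the folding, hydroxylation and secretion of adiponectin, 1 rose and 2 fell in TJ relative to HFD (median -0.45, against -0.14 over all genes tested). Gstk1, known as DsbA-L, which promotes adiponectin multimerization, had 22.0, 20.1 and 22.9 FPKM in HFD and 36.9, 58.0 and 37.3 FPKM in TJ. It rose by 0.96 ± 0.20 (adjusted p = 0.0279), in the direction of Adipoq. Hspa5, the endoplasmic reticulum chaperone BiP, fell by 0.90, and Plod2, a lysyl hydroxylase, fell by 0.96 in TJ and by 0.75 in GT. Erp44 and Ero1l, which retain and release adiponectin in the secretory pathway, were not called in these comparisons. In HFD relative to ND without ND replicate 1, where 15.4% of all genes were called, 5 of the 10 rose, Calr by 1.16, Hspa5 by 0.96, Plod2 by 0.92, Canx by 0.79 and Plod1 by 0.68, and none fell. With all libraries none was called, with differences of 0.51, 0.84, 1.55, 0.30 and 1.43 for these genes in the same order. The rising chaperones and hydroxylases serve many secreted proteins, collagens included.

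Among 8 transcriptional regulators of Adipoq, none was called in TJ or GT relative to HFD (medians 0.30 and 0.07). Pparg, the adipocyte nuclear receptor that activates Adipoq, had 63.3, 62.7 and 51.8 FPKM in HFD and 75.7, 118.3 and 89.1 FPKM in TJ, without overlap, a log2 difference of 0.64 that was not called. Atf3, a stress-induced repressor, gave the widest range of the list. It had 130.0, 115.4 and 151.1 FPKM in HFD, 84.1, 69.0 and 24.6 FPKM in GT, 54.4, 6.61 and 44.0 FPKM in TJ and 0.529, 4.55 and 3.47 FPKM in ND. It rose in HFD relative to ND by 5.30 (adjusted p = 0.0196) with all libraries and by 4.73 (adjusted p = 0.000682) without ND replicate 1. With the replicate block over all libraries its adjusted p was 0.0675 and the call was lost. Its differences of -2.31 in TJ and -1.31 in GT from HFD were not called. Cebpb also rose in HFD without ND replicate 1, by 1.25, whereas its difference of 0.72 with all libraries was not called.

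Of 22 genes of downstream signalling, 20 passed the filter in TJ against HFD, where 3 rose and 3 fell (median -0.17, against -0.14 over all genes tested), next to 18.5% called among all genes. Called or not, 5 were higher and 15 lower. Prkag3 and Prkag2, which encode gamma subunits of AMP-activated protein kinase, rose by 0.90 and 0.61, and Slc2a4, the insulin-responsive glucose transporter GLUT4, rose by 0.82. Other subunit genes of this kinase had lower means in TJ than in HFD and were not called. These were Prkaa1 (1.74 against 3.46 FPKM), Prkaa2 (1.13 against 1.52), Prkab1 (10.02 against 11.31) and Prkab2 (6.82 against 9.36). Prkag3 stood at 2.95, 3.72 and 2.83 FPKM in HFD and at 7.36, 6.04 and 6.95 FPKM in TJ. Camkk2, a kinase upstream of AMP-activated protein kinase, fell by 0.64, Mapk14, the p38 kinase, by 0.67 and Sphk1, a sphingosine kinase, by 0.78. In GT relative to HFD Prkag3 rose by 0.85 and Acacb, an acetyl-CoA carboxylase, by 0.78. Without ND replicate 1, Acaca fell in HFD relative to ND by 1.63, Acacb by 1.31, the insulin receptor substrate gene Irs2 by 1.30 and Prkag2 by 0.92, while Sphk2 rose by 0.86 and Cpt1a, which admits fatty acids to mitochondria, by 0.65. With all libraries none of these 6 was called, with differences of -0.58 for Acaca, -0.31 for Acacb, -0.20 for Irs2, -1.03 for Prkag2, 0.39 for Sphk2 and 1.46 for Cpt1a. Appl1, the adaptor that binds both adiponectin receptors, was not called in any of these comparisons.

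Relatives of the 4 genes did not share a single direction. In the C1q/TNF family, C1qtnf12 rose in TJ relative to HFD by 1.01, from 26.1, 19.0 and 19.9 FPKM to 41.5, 49.4 and 41.8 FPKM, and fell in HFD without ND replicate 1 by 0.89 (-1.27 and not called with all libraries). The complement genes C1qa, C1qb and C1qc, which macrophages express, fell in TJ by 0.73, 1.26 and 1.16 and rose in HFD relative to ND by 1.87, 2.83 and 2.80 with all libraries and by 1.804, 2.74 and 2.44 without ND replicate 1. With the replicate block over all libraries their adjusted p-values were 0.206, 0.118 and 0.13, and the calls were lost. C1qtnf6 and C1qtnf5 rose in HFD without ND replicate 1, by 1.49 and 1.13, and their differences of 1.84 and 1.00 with all libraries were not called. Of the PAQR relatives of the receptors none was called in TJ or GT relative to HFD. Paqr9 and Paqr7 rose in HFD without ND replicate 1, by 1.34 and 0.77, and both differed by 0.59 with all libraries, without a call. Among the cadherins, Cdh11, a mesenchymal cadherin, fell by 1.44 in TJ and by 1.16 in GT from HFD levels of 2.91 to 4.24 FPKM, opposite in sign to Cdh13. None of the listed pathway genes was called in TJ relative to GT.

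The genes whose profiles were most like those of each member over the 12 libraries are given as a description, by Pearson correlation of log2(FPKM + 1) among 13830 genes. For Adipoq they were Acat1, Mgst1, Cdo1, Rab34 and Phyh (r from 0.985 to 0.991). For Adipor1 they were Cavin1, B4gat1, Txndc15, Copg2 and Htra1 (0.985 to 0.990), and for Adipor2 they were Fbxl4, Mknk2, Acad11, Fitm2 and Xpc (0.988 to 0.993). For Cdh13 they were Sema3g, Timp3, Adgra3, Adgrl4 and Dab2ip (0.987 to 0.991). Each of these genes was at its lowest in ND replicate 1, so that a single library weighs on every coefficient. Over the other 11 libraries 0 of the 5 nearest genes were shared for Adipoq and Adipor2, 1 for Adipor1 and 2 for Cdh13. Among the members, the correlation of Adipoq with Adipor2 was 0.950 over 12 and 0.850 over 11 libraries, and that of Adipor2 with Cdh13 was 0.964 and 0.800. The correlation of Adipor1 with Adipor2 went from 0.888 to 0.285.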

How the data were processed

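RNA was extracted from eWAT and sequenced as mRNA libraries on an Illumina platform. The authors aligned the reads with STAR and quantified genes with Cufflinks, and deposited FPKM values per library. The submitters' processing notes name CASAVA 1.8.2, STAR 2.4.0 and Cufflinks 2.1.1. The study's methods name Ensembl release 72, whose mouse build is GRCm38, and also a human genome, whereas all 23474 identifiers are mouse. Symbols and coordinates came from GENCODE M21 (GRCm38), which named 22671 of the identifiers, and promoters from RefSeq. The read counts used in the study were not analysed here. No column held comparisons by the authors.

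Values were tested as log2(FPKM + 1) with limma 3.58.1 (R 4.3.3, empirical Bayes with trend), with only the 2 groups compared in the fit, over genes that averaged 1 FPKM or more. On data simulated from the means and spreads of TJ and HFD, 91 of 100 4-fold and 61 of 100 2-fold changes were called, with 17 false calls. The changed genes were drawn from better expressed genes of small spread, an easier setting than the real data. Single values were tested by exact two-sided permutation (scipy, Python) over libraries. The p-values measure the spread between these libraries. The deviations of same-numbered libraries correlated positively in HFD against ND (0.547, 0.342 and 0.122) and in GT against ND (0.219, 0.118 and 0.147). The labels give no pairing, and HFD replicate 3 correlated more with ND replicate 2 (0.626) than with ND replicate 3. A pairing is therefore not established, and the replicate number was used as a block only in an alternative fit. No blocked fit was run without ND replicate 1.

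The members and lists were chosen with earlier results of these data known. Named were the 4 members, the 5 genes most correlated with each, and the called, highest or lowest genes of each list. Other genes named in a list description (Appl1, Erp44, Ero1l, Prkaa1, Prkaa2, Prkab1 and Prkab2) were added for their role. The alternatives tried were a pseudocount of 0.1, no filter, 2 other scalings, all 12 libraries in the fit, the replicate block and each library left out. A fit of 11 libraries without ND replicate 1 and removal of a transcript length trend (loess, span 0.5) were added after the data were seen. FPKM hold no counts, so no counting interval is given, and the fragment numbers are approximate.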

Additional observations from a re-analysis of the deposited data

How the results depend on the processing

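All log2 differences below are first group minus second, and a cause was not tested for any change. For the 4 members, the within-library differences and the counts of called genes, 391 of the alternative values kept direction and side of the threshold or stayed within 1.5 times, 38 changed sign, 15 lost and 8 gained a call without a change of sign, and 46 counts moved further. For Adipor2 in HFD against ND, 2 of the sign changes, both without ND replicate 1, also gained a call.

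In the fit of the 11 libraries without ND replicate 1, HFD against ND gave -1.19 for Adipoq (adjusted p = 0.0149), -0.043 for Adipor1, -1.18 for Adipor2 (adjusted p = 0.00451) and -0.69 for Cdh13. GT against ND gave -0.43 for Adipoq, -0.43 for Adipor2 and -0.17 for Cdh13, and TJ against ND gave -0.44 for Adipor2 and -0.11 for Cdh13. Quantile normalization gave 0.28 for Adipoq in HFD against ND and -0.027 for Adipor1 in TJ against GT. In TJ against HFD it gave 0.57 for Adipor2 (fold under 1.5) and 0.69 for Cdh13 (called). Median-of-ratios scaling gave -0.13 for Adipor2 in HFD against ND, 0.86 for Adipor2 in GT against HFD (called), 0.70 for Cdh13 in TJ against HFD (called) and 0.017 for Adipor2 in TJ against GT. A pseudocount of 0.1 gave 0.76 for Adipor2 in GT against HFD (adjusted p = 0.046, called). With the length trend removed, HFD against ND gave 0.67 for Adipoq and -0.012 for Adipor2, and TJ against GT gave 0.072 for Adipor2. In TJ against HFD, Adipoq (1.46) and Adipor2 (0.75) lost their calls without the filter (adjusted p 0.0592 and 0.0742) and with all 12 libraries in the fit (0.425 and 0.744). With the median of the markers, Adipoq relative to them in GT against HFD was -0.22 and Cdh13 in TJ against HFD was 0.15.

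Genes called in HFD against ND (255) were 126 with a pseudocount of 0.1, 1136 with all 12 libraries in the fit, 2649 with 11 and 401 with the length trend removed. Those of GT against HFD (464) were 5 without the filter, 1 with 12 libraries and 131 with 11. Those of TJ against HFD (2366) were 382 without the filter and 0 with 12 libraries. Those of TJ against GT (18) were 11, 6, 29, 2 and 118 with a pseudocount of 0.1, no filter, quantile normalization, 12 and 11 libraries. Those of GT against ND and TJ against ND (0) were 162 and 22 with 12 libraries and 863 and 2205 with 11. In TJ against HFD 949 genes rose and 1417 fell, but 1228 and 1177 with median-of-ratios scaling and 1543 and 1151 with quantile normalization, which moved the median over all genes from -0.14 to -0.03 and 0.03. In GT against HFD 233 rose and 231 fell, against 367 and 154 and 405 and 162.

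The replicate block left 0 genes called in HFD against ND, where 2239 had an unadjusted p under 0.05. In all comparisons the libraries share only a number, and in all but GT against ND not every library correlated best with its own number. The block gave 5 called genes in GT against HFD and 1198 in TJ against HFD, where Adipor2 (0.75) had an adjusted p of 0.0536. The block changed no other call of the 4 members.

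With each library left out in turn, HFD against ND ranged from -1.19 to 0.70 for Adipoq, -0.043 to 0.57 for Adipor1, -1.18 to 0.75 for Adipor2 and -0.69 to 1.12 for Cdh13, each with its lowest value without ND replicate 1. GT against HFD ranged from 0.58 to 0.96 for Adipoq, 0.59 to 0.88 for Adipor2 and 0.32 (without GT replicate 3) to 0.69 for Cdh13. TJ against HFD ranged from 1.24 to 1.60 for Adipoq and 0.56 to 0.86 for Adipor2. TJ against GT ranged from -0.19 to 0.16 for Adipor2 and -0.12 to 0.26 for Cdh13. GT against ND ranged from -0.43 to 1.46 for Adipoq, -0.43 to 1.503 for Adipor2 and -0.17 to 1.64 for Cdh13, and TJ against ND from 0.28 (without ND replicate 1) to 2.16 (without ND replicate 2) for Adipoq, -0.44 to 1.5 for Adipor2 and -0.11 to 1.70 for Cdh13. Adipoq relative to the adipocyte markers ranged from -0.43 to 0.067 in HFD against ND and from -0.0021 to 0.15 in GT against HFD, and Adipor2 relative to Adipor1 from -1.14 to 0.18 in HFD against ND and from 0.22 (without TJ replicate 2) to 0.55 in TJ against HFD. Cdh13 relative to the endothelial markers ranged from 0.11 (without GT replicate 3) to 0.397 (without GT replicate 1) in GT against HFD. Genes called ranged from 0 to 2098 in HFD against ND, 4 to 1107 in GT against HFD (highest without GT replicate 1), 0 to 3412 in TJ against HFD (0 without any HFD library or TJ replicate 1), 4 to 81 in TJ against GT, 0 to 1038 in GT against ND and 0 to 1148 in TJ against ND (both highest without ND replicate 2).

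Precision is limited by 3 libraries per group and, for ND, by the library that stood apart.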
